A study of Saccharomyces cerevisiae with 100 samples.

Results

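The genes described here are 10 genes of Saccharomyces cerevisiae that are known as, or were grouped with, flocculins and repeat-rich cell wall proteins. They are FLO1 (YAR050W), FLO5 (YHR211W), FLO9 (YAL063C), FLO11 (YIR019C), DAN4 (YJR151C), CSS1 (YIL169C), HPF1 (YOL155C), AGA1 (YNR044W), YMR317W and MSS11 (YMR164C). MSS11 encodes a transcription factor and not a cell wall protein. The genes were chosen by name with their single-nucleotide variants (SNVs) already known, so every value below is a description and none was tested. Of the 10 genes, 9 were among the 1660 genes with an SNV in any of 3 deposited tables, and AGA1 had none. What share of all yeast genes these 1660 are was not counted. Counts of genes with an SNV, here and below, are therefore not read as high or low. Their SNVs were those annotated as overlapping one of the 10 genes, which were 41 of 163 SNVs in YMS6, 0 of 25 in S64Bα and 16 of 2904 in the suppressors.

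Genomic DNA of 100 strains, 1 library each, was sequenced in 3 experiments to find mutations that let checkpoint mutants survive methyl methanesulfonate (MMS), a DNA-alkylating agent. All strains are W303 derivatives that were grown in rich medium. The label of YMS6 gives MATa and the marker alleles of W303 only, while the paper describes the strain as exo1∆ rad53∆. Its control YGDP939 is labelled sml1∆::URA3 rad53∆::LEU2 exo1∆::HIS3. S64Bα and its control W64Aα share MATα, sml1∆::URA3, rad53∆::HIS3, chk1∆::LEU2 and exo1∆::TRP1, and S64Bα also carries a suppressor. According to the paper, this suppressor strain was backcrossed several times with its parent before sequencing. YGDP939 was newly generated and is not described as the parent of YMS6. The 95 suppressors (SUP1, for example) are separate isolates from MMS plates of rad53∆ sml1∆ cells, and their control YJT75 is MATa sml1∆::URA3 rad53∆::LEU2. All groups thus lack RAD53, a checkpoint kinase gene, except that the label of YMS6 does not state it.

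The measured value was the allele frequency, which gives how much of the reads covering a position in 1 library show the alternative base. An SNV was listed from 0.25 upwards in YMS6 and S64Bα and from 0.4 upwards in the suppressors, and only where the control of the experiment was under 0.1. The paper also asked for a higher minimum count of reads with the alternative base in the suppressors than in YMS6 and S64Bα. These minimums differ between the experiments, so counts at low allele frequency are compared within an experiment. The read depth at single positions is unknown, and no strain has a replicate library.

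Flocculins are adhesins of the yeast cell wall. FLO1, FLO5 and FLO9 encode closely related proteins that bind mannose chains on neighbouring cells, and FLO11 encodes the adhesin of pseudohyphal and invasive growth. The middle of these proteins is rich in serine and threonine and is encoded by tandem repeats, and the genes share long similar stretches, so a short read from one repeat or gene can fit another. A mutation already present in the single cell from which a haploid strain grew is carried by all of its cells. It is read at an allele frequency near 1 where its chromosome is present in 1 copy. A base carried by only some of the cells, of the copies of a chromosome or of the aligned copies of a sequence is read at a lower one. The comparison below therefore sets the allele frequency, the control allele frequency, the spacing and the effects of the SNVs in the 10 genes beside those in other genes. The reads and their alignments were not analysed here, so from which copy a read came was not tested.

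In YMS6 the SNVs of the 10 genes were mostly of low allele frequency, crowded and synonymous. Their median allele frequency was 0.310 over 41 SNVs, with a range of 0.252 to 0.795 and with quartiles of 0.272 and 0.467. In the 28 SNVs of other genes the median was 0.530 and the range 0.25 to 1. An allele frequency under 0.7 was found for 38 of the 41 SNVs (92.7%), where the share over all 69 SNVs in genes was 79.7%, and for 17 of the 28 SNVs in other genes (60.7%). All 41 were under 0.9, where 84.1% of all SNVs in genes were. None of the 41 SNVs reached 0.99, a level that 11 of the 28 SNVs in other genes reached (39.3%). The SNVs in the 10 genes thus lay lower than those in other genes, although both included SNVs close to the deposited minimum. They were closer to the 94 SNVs outside genes, of which 83 were under 0.7 (88.3%), with a median of 0.320.

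The control YGDP939 also had reads with the alternative base at most of these positions. The control allele frequency was above 0 for 28 of the 41 SNVs (68.3%), with a highest value of 0.0967, against 53.6% of all 69 SNVs in genes. In other genes it was above 0 for 9 of 28 SNVs (32.1%), with a highest value of 0.0886, and outside genes for 56 of 94 (59.6%). Among SNVs at 0.4 or more the difference was smaller, with 5 of 13 in the 10 genes (38.5%) and 4 of 16 in other genes (25%). At 0.7 or more, none was above 0 in the control, with 0 of 3 in the 10 genes and 0 of 11 in other genes. Among SNVs under 0.7 the counts were thus 28 of 38 in the 10 genes and 9 of 17 in other genes. The highest values lie just under 0.1, the value from which on the authors discarded an SNV. How many SNVs of the 10 genes were discarded there is not known from the tables.

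**Figure D1:**
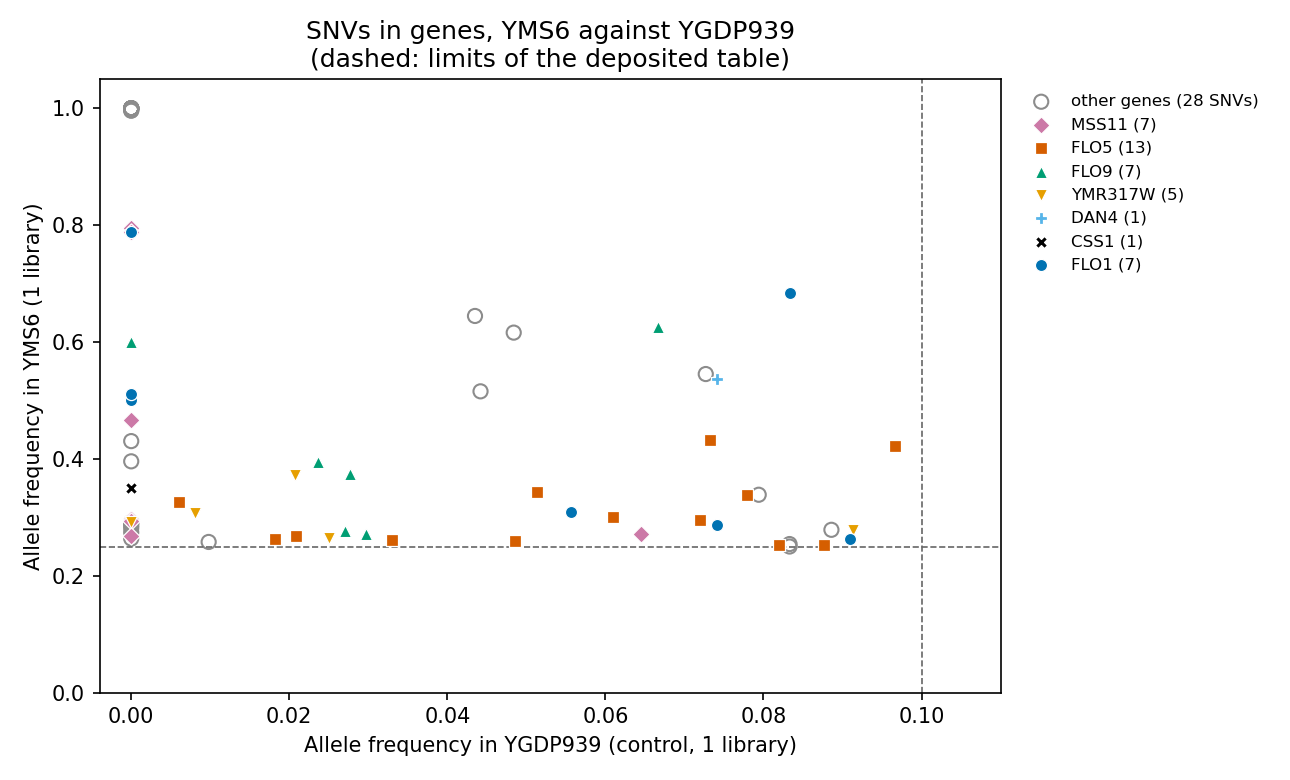
Allele frequency of each SNV in a gene in YMS6 (vertical axis) against that in the control YGDP939 (horizontal axis), 1 library each; coloured and black symbols are the 41 SNVs of the 10 genes and open circles the 28 SNVs of other genes, and the dashed lines are the limits of the deposited table. Most of these symbols lie under 0.7 and spread over control values from 0 to 0.0967, while the 11 open circles at the top left are SNVs of other genes at 0.99 or more. The 9 open circles with control values above 0 all lie under 0.7.

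The SNVs of the 10 genes lay close to each other. Another SNV of YMS6 lay within 1000 bases for 39 of the 41 SNVs (95.1%), against 71% of all SNVs in genes and 10 of 28 in other genes (35.7%). Within 100 bases the counts were 34 of 41 (82.9%), against 63.8% of all SNVs in genes, and the same 10 of 28. The median distance to the nearest SNV was 12 bases for the 41 SNVs and 44349 bases for the SNVs in other genes. When only SNVs at 0.7 or more were kept, 2 of 3 in the 10 genes and 0 of 11 in other genes lay within 1000 bases of another. Spacing was not counted apart for SNVs under 0.7, so this contrast is not matched for allele frequency. Outside genes the spacing was close to that in the 10 genes, with 71 of 94 SNVs within 1000 bases of another (75.5%) and a median distance of 18 bases. When SNVs of a gene at most 100 bases apart were counted as 1 group, the 41 SNVs formed 18 groups. Neighbouring SNVs can share reads, so the 41 SNVs are not independent observations.

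Few of these SNVs changed the protein. All 41 were annotated as coding, with 8 missense (19.5%), 33 synonymous (80.5%) and no nonsense SNVs, where 32.8% of all coding SNVs of YMS6 were nonsilent. In other genes 13 of 23 coding SNVs were nonsilent (56.5%). Transitions made up 30 of the 41 SNVs (73.2%), against 69.6% of all SNVs in genes, and 18 of 28 in other genes (64.3%), which is a smaller difference than that in effects. These percentages of all SNVs in genes include the 41 SNVs themselves.

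**Figure D2:**
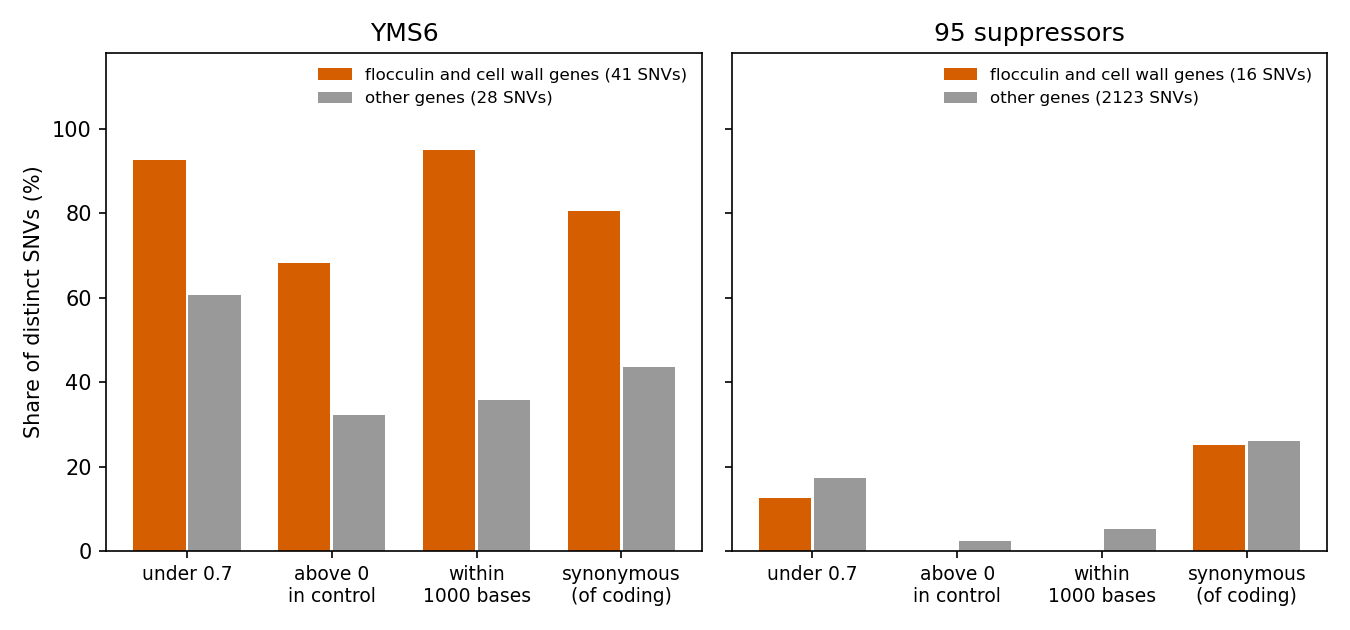
Share of distinct SNVs (percent) that were under an allele frequency of 0.7, above 0 in the control, within 1000 bases of another SNV of the strain, or synonymous among coding SNVs, for the 10 genes (coloured) and for other genes (grey), in YMS6 (left) and in the suppressors (right). In YMS6 the coloured bars (92.7%, 68.3%, 95.1% and 80.5%) are above the grey ones (60.7%, 32.1%, 35.7% and 43.5%), and in the suppressors the coloured bars are at 12.5%, 0, 0 and 25%.

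FLO1 (chromosome I), the dominant flocculin gene of many flocculent strains, carried 7 SNVs in YMS6, all synonymous. SNVs are written here as the reference base, the position in sacCer2 (with base 1 at the chromosome's left end) and the alternative base, on the reference strand. The first, C205676T, had an allele frequency of 0.5 in YMS6 and 0 in YGDP939. The next 5 lay within 139 bases, from position 205883 to 206021, and had values that differ widely for such a short stretch. Read depth is unknown, so whether levels within this or another gene are distinct was not tested. A205883G stood at 0.512 and C205940G at 0.788, both with 0 in the control. T206015G, A206018T and T206021C, at 3 consecutive codons, stood at 0.287, 0.262 and 0.310, with 0.0741, 0.0909 and 0.0556 in the control. The last SNV, C206210G, had 0.684 in YMS6 and 0.0833 in the control. FLO1 therefore held SNVs near 0.3, near 0.5 and near 0.7 to 0.8 within 535 bases. That YMS6 was above YGDP939 at every listed position follows from the limits of the table.

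FLO5 (chromosome VIII), whose protein closely resembles that of FLO1, carried the most SNVs of the 10 genes in YMS6. Its 13 SNVs lay within 1519 bases and had allele frequencies of 0.252 to 0.432, with a median of 0.296. All 13 were above 0 in YGDP939, where they ranged from 0.00600 to 0.0967. No other of the 10 genes with more than 1 SNV had control reads at every position, and no FLO5 SNV reached 0.5. The highest allele frequencies were those of T526450C (0.432, control 0.0732) and T526858G (0.4215, control 0.0967). The lowest were those of T526732C (0.252, control 0.0876) and C526729T (0.253, control 0.0820), which lie 1 codon apart and just inside the deposited minimum. The only missense SNV, G527216A, stood at 0.267 beside the synonymous T527218G at 0.264, 2 bases away, and their control values were 0.0208 and 0.0182. These neighbours thus had nearly equal values in both strains.

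FLO9 (chromosome I) encodes a further lectin-like protein of the FLO1 type. Its 7 SNVs formed 2 groups with different levels. The first group, 4 SNVs within 72 bases, had allele frequencies of 0.271 (T25453G), 0.374 (G25462A), 0.395 (G25465A) and 0.276 (C25524T, the only missense SNV), with control values of 0.0236 to 0.0297. The second, 3 synonymous SNVs within 7 bases, stood at 0.6 (C26992T), 0.6 (A26995G) and 0.625 (T26998C). In YGDP939 the first 2 of these were listed at 0 and T26998C at 0.0667. The 2 groups did not overlap in YMS6, and the control values of the first were nearly constant.

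FLO11 (chromosome IX) had no SNV in YMS6, and neither had HPF1 nor AGA1, which encodes the anchor subunit of a-agglutinin, a mating adhesin. DAN4 (chromosome X), which encodes a cell wall mannoprotein made under anaerobic conditions, carried the missense SNV G715090T at 0.537 with 0.0741 in YGDP939. CSS1 (chromosome IX), which encodes a secreted protein related to that of HPF1, carried the missense SNV T25418C at 0.349 with 0 in YGDP939. These were the only SNVs of the 10 genes in YMS6 without another SNV of the strain within 1000 bases.

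YMR317W (chromosome XIII), a gene of unknown function, carried 5 SNVs within 444 bases. A908147G (synonymous) stood at 0.279 with 0.0913 in the control, and T908374C (missense) at 0.293 with 0. The other 3 lay within 30 bases, A908561G at 0.264, G908573A at 0.308 and the missense C908590T at 0.373, with control values of 0.00810 to 0.0250. All 5 lay under 0.4, the minimum of the suppressor table, so none would have been listed there at the same allele frequency.

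MSS11 (chromosome XIII) encodes a transcription factor needed for FLO11 expression, and its protein has long glutamine and asparagine runs. It carried 7 SNVs in 2 groups. The first, 3 SNVs within 15 bases, held T587664C (missense) at 0.467, C587676T (missense) at 0.296 and A587678G (synonymous) at 0.294, all at 0 in YGDP939. The second, 4 synonymous SNVs within 70 bases, held T588575C at 0.795 and T588584C at 0.788 beside C588608T at 0.269 and T588644C at 0.272. Only T588644C was above 0 in the control (0.0645). MSS11 and FLO1 were the only genes of the 10 with SNVs at 0.7 or more, which were C205940G, T588575C and T588584C, all synonymous and at 0 in the control.

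**Figure D3:**
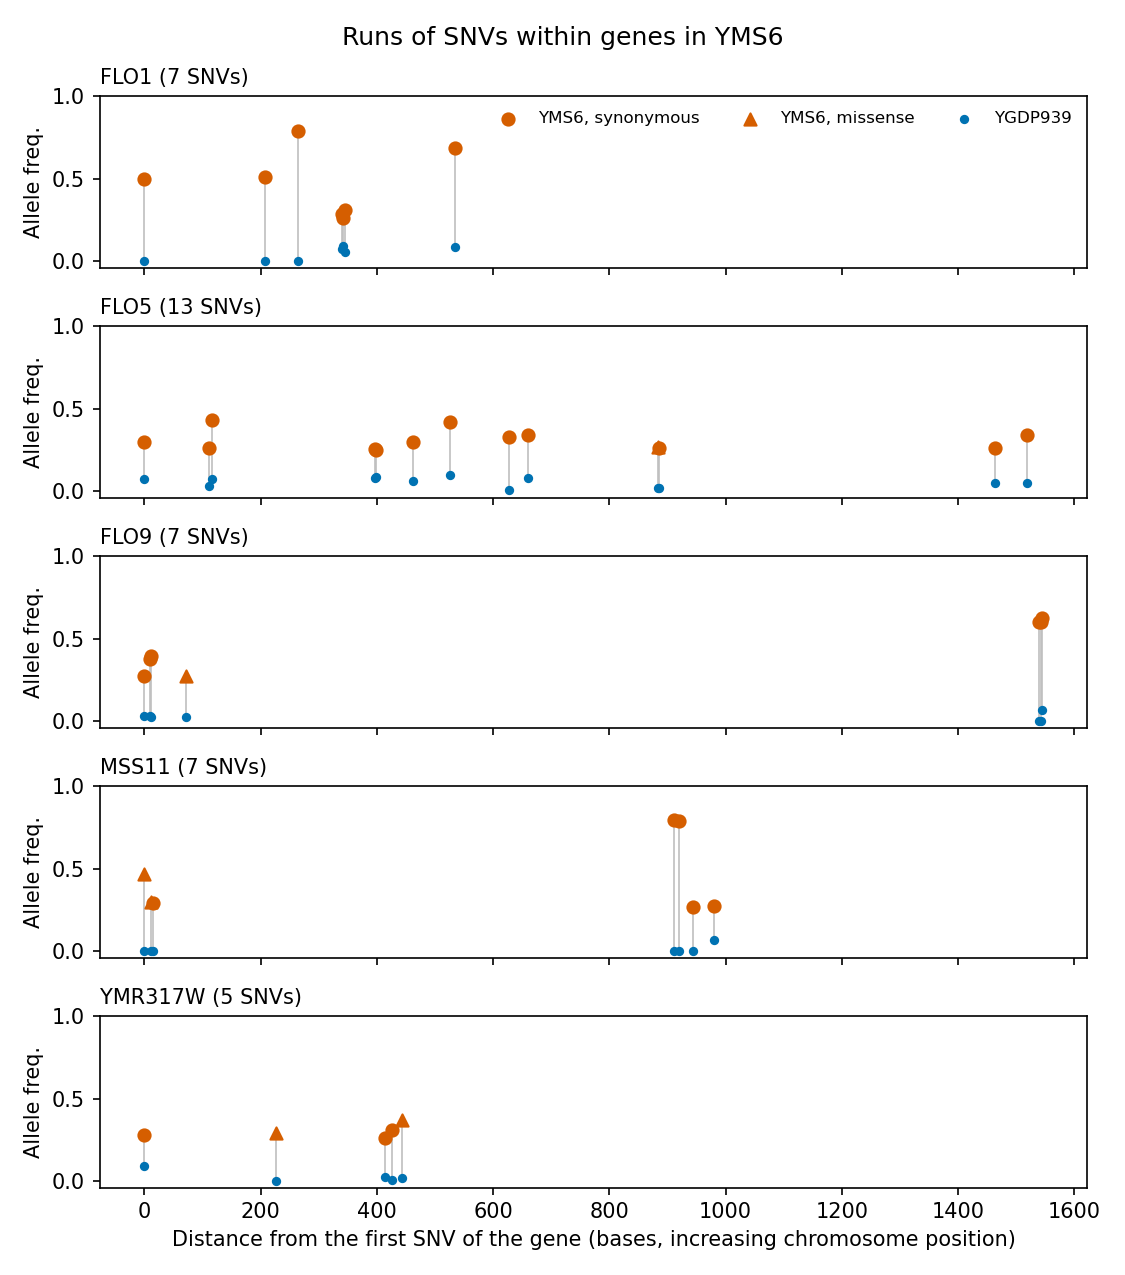
Allele frequency in YMS6 (large symbols, circles for synonymous and triangles for missense SNVs) and in the control YGDP939 (small circles, joined by a line) of each SNV of FLO1, FLO5, FLO9, MSS11 and YMR317W against its distance in bases from the first SNV of the gene. FLO1, FLO9 and MSS11 hold SNVs at several levels, whereas all 13 FLO5 SNVs lie between 0.252 and 0.432 with control values above 0.

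The synonymous SNVs of a gene were whole codons apart. In FLO1 (7 SNVs), FLO5 (12), FLO9 (6), MSS11 (5) and YMR317W (3), the positions of all synonymous SNVs left the same remainder when divided by 3, so they fell on the same codon position. This outcome was largely fixed by what was counted, since most synonymous changes in any gene lie at the last codon position. Synonymous SNVs of other genes were not counted in this way, so nothing particular to these genes is read from it.

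In the suppressors the SNVs of the 10 genes were mostly of high allele frequency, single and missense. There were 16 SNVs, each in 1 suppressor, in 15 of the 95 strains and in 8 of the 10 genes. The exceptions were FLO1 and AGA1. Their median allele frequency was 0.9976, with a range of 0.487 to 1, where SNVs in other genes had a median of 1 and a lowest value of 0.401. Under 0.7 were 2 of the 16 (12.5%), where the share over all 2139 SNVs in genes was 17.3%, and 367 of 2123 in other genes (17.3%). Without chromosome XII, on which none of the 10 genes lies and on which many suppressors have SNVs of intermediate allele frequency, 88 of 1814 SNVs in other genes were under 0.7 (4.85%). Under 0.9 were 5 of the 16 (31.25%), against 19.9% of all SNVs in genes and 141 of 1814 in other genes without chromosome XII (7.77%). With 16 SNVs, a share moves by 6.25 percentage points for each SNV.

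None of the 16 had a control allele frequency above 0, where 2.34% of all SNVs in genes did. None lay within 1000 bases of another SNV of its strain, where 5.19% of all SNVs in genes did (2.57% within 100 bases), and the median distance to the nearest one was 241512 bases, against 77921 bases in other genes. Of the 16, 12 were missense (75%) and 4 synonymous, where 73.9% of all coding SNVs in the suppressors were nonsilent, and 0 were nonsense. Transitions made up 11 of 16 (68.75%), against 46.4% of all SNVs in genes. The control values and effects thus lay near those of other genes of the same table. Within 10000 bases of another SNV of the strain lay 0 of 16, against 384 of 2123 in other genes (18.1%). With so few SNVs, and without matching for the number of SNVs per strain, this is not read as a wider spacing. The CSS1 SNV in SUP6 and the FLO5 SNV in SUP69 had no other SNV of their strain on the chromosome, so the median distance leaves them out. At the minimum of 0.4 that the suppressor table uses, 13 of the 41 SNVs of YMS6 were left, of which 12 lay within 1000 bases of another (92.3%), 5 were above 0 in the control (38.5%) and 2 were nonsilent (15.4%). The higher minimum count of reads with the alternative base in the suppressors was not applied to YMS6 here. The paper also used sequencing platforms with different read lengths, and which strains had which is not given. This cut at 0.4 therefore does not make the experiments fully alike. No position was shared between the 16 SNVs and the 41 of YMS6.

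FLO5 carried the synonymous SNV A525415T in SUP69 at 0.995, which was 918 bases from the nearest FLO5 SNV of YMS6. FLO9 carried the missense SNV G24131A in SUP61 at 0.487, the lowest allele frequency of the 16 and also the lowest of 34 SNVs of that strain outside chromosome XII, whose median was 1. It was listed at 0 in YJT75 and in all other suppressors, and lay 1322 bases from the nearest FLO9 SNV of YMS6.

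FLO11 carried 3 SNVs, all at 1, which were the missense G390014T in SUP121 and the synonymous G391708A in SUP113 and T393589G in SUP30. At G391708A, 16 suppressors without the SNV had an allele frequency above 0, the highest being 0.0071, so reads with the base occurred there at a very low level in other libraries. Such values also occurred at some others of the 16 positions, as at G390014T (6 suppressors, highest 0.009) and C28716A of HPF1 (4, highest 0.0066). In other genes they were counted only from 0.01 upwards, so this is not read as particular to FLO11. All 3 FLO11 SNVs were listed at 0 in YJT75, and none of them was in a strain with an SNV in another of the 10 genes.

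HPF1 (chromosome XV), which encodes a mannoprotein that lowers protein haze in wine, carried 3 missense SNVs. C29391T in SUP129 and A30885G in SUP72 stood at 1, and C28716A in SUP93 at 0.787, the lowest of 25 SNVs of its strain outside chromosome XII. At C29391T 1 other suppressor had an allele frequency of 0.0142, the only value of 0.01 or more in a strain without the SNV at any of the 16 positions (1 of 16, 6.25%, against 11.8% of all SNVs in genes). HPF1 and FLO11, which had no SNV in YMS6, thus shared with CSS1 the highest count in the suppressors.

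CSS1 carried the missense SNVs T23888C in SUP54 at 1 and T24483C in SUP6 at 0.995, and the synonymous A25714T in SUP83 at 0.7925. The last was the lowest of 30 SNVs of its strain outside chromosome XII, and was also the one closest to the CSS1 SNV of YMS6, at 296 bases. DAN4 carried the missense SNVs T715556C in SUP86 at 1 and G713708A in SUP21 at 0.882, the sixth lowest of 34 SNVs in a strain whose other SNVs outside chromosome XII had several values under 0.9. YMR317W carried the missense SNVs C907384T in SUP91 at 0.989 and T908556C in SUP81 at 0.668, the lowest of 13 SNVs of its strain outside chromosome XII. T908556C lay 5 bases from A908561G, a SNV of YMS6, the shortest distance between the tables in these genes.

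MSS11 carried the missense SNV T589290C in SUP69 at 1, 646 bases from the nearest MSS11 SNV of YMS6. SUP69 was the only suppressor with SNVs in more than 1 of the 10 genes, FLO5 and MSS11, which lie on different chromosomes. Of the 16 SNVs, 4 had the lowest allele frequency of their strain outside chromosome XII, those in CSS1 (SUP83), FLO9 (SUP61), HPF1 (SUP93) and YMR317W (SUP81). Over all SNVs in genes outside chromosome XII, counted in each strain, 3.59% were the lowest of their strain. The medians of the 15 strains outside chromosome XII were 0.989 to 1, and 0 of the 15 were among the 6 suppressors with a median under 0.9. The cause of the low values of the 4 SNVs was not tested.

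**Figure D4:**
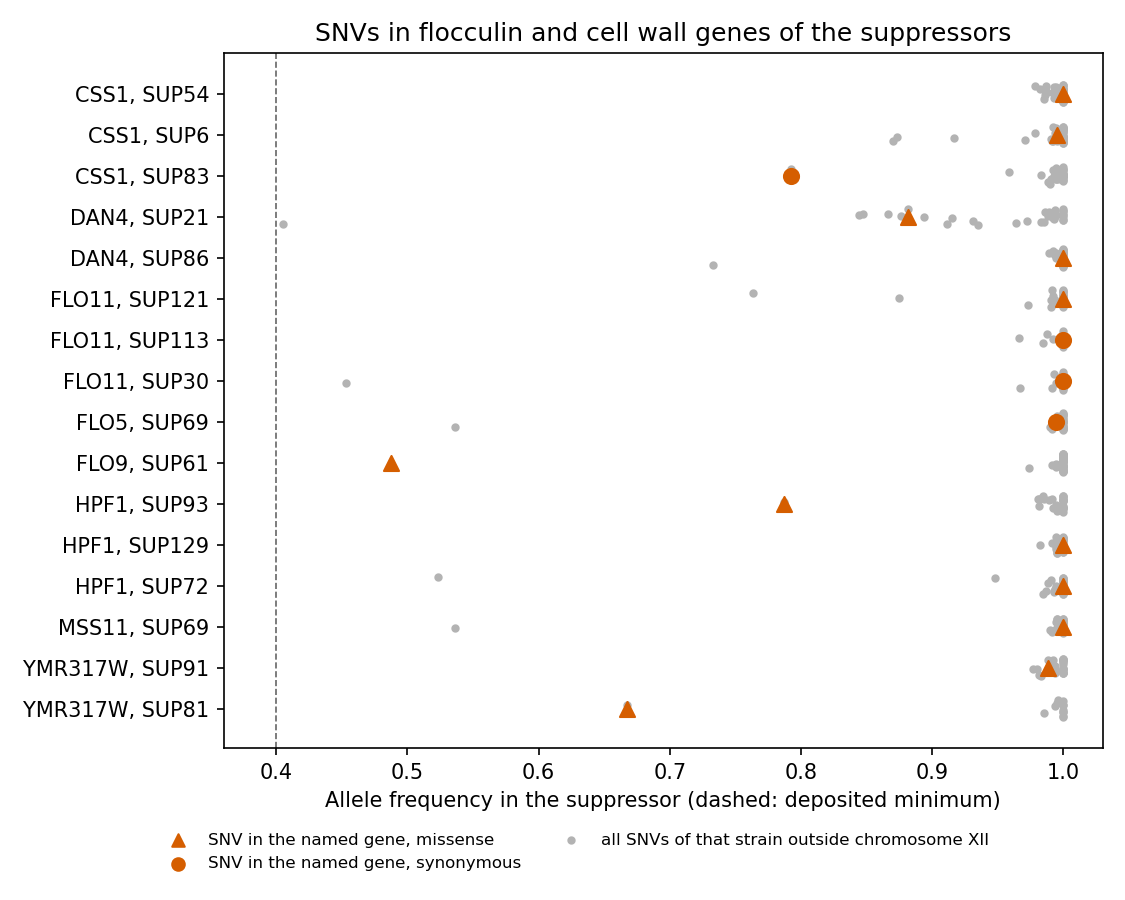
Allele frequency of the 16 SNVs of the 10 genes in the suppressors that carry them (coloured), with all SNVs of the same strain outside chromosome XII (grey) and the deposited minimum (dashed). Of the 16, 10 lie at 0.99 or more among the other SNVs of the strain, and those in FLO9 (0.487), YMR317W (0.668), HPF1 (0.787) and CSS1 (SUP83) are the lowest of their strain.

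S64Bα had no SNV in the 10 genes at the deposited minimum of 0.25, which is the same minimum as in YMS6. Its table held 17 SNVs in genes, fewer than the 28 that YMS6 had in genes other than the 10. The 2 experiments were called separately and differ in strains, in backcrossing and in how the control relates to the strain. They may also differ in sequencing platform and read length, which the paper does not give for each strain. The difference between YMS6 and S64Bα cannot be told apart from any of these.

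The 10 genes were chosen with their SNVs known, so they are no measure for the count of genes in another list. Of 40 further cell wall and surface genes, 1 had SNVs in YMS6. This was PIR3 (chromosome XI), which encodes a cell wall protein with internal repeats. Its 2 synonymous SNVs lay 21 bases apart, T144867C at 0.645 with 0.0435 in YGDP939 and G144888A at 0.279 with 0.0886. They resembled the SNVs of the 10 genes in level, in control reads and in spacing. In the suppressors 12 of the 40 genes carried 15 SNVs in 12 strains, 8 missense and 7 synonymous, with a median allele frequency of 0.986, all at 0 in YJT75. The 2 under 0.7 were in CRR1 (SUP9, 0.628) and MID2 (SUP128, 0.448), both on chromosome XII, and CRR1 is named after its value was seen. PRY3 and MID2 were each hit in more than 1 suppressor. PRY3, which encodes a cell wall protein of the CAP family, carried T292249A (missense, 0.9565) in SUP46, and G292225T (synonymous, 0.882) and G292985T (missense, 1) in SUP94. MID2, which encodes a sensor of cell wall stress, also carried the missense C791439T in SUP30 at 0.989 beside A791637T in SUP128.

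Of 14 further regulators of the FLO genes, none had an SNV in YMS6 or S64Bα. In the suppressors 4 of the 14 carried 1 missense SNV each, in 4 strains, at allele frequencies of 0.988 to 1. They are named after their values were seen. The genes were TUP1, a general repressor (A261333G, SUP111), FLO8, an activator of flocculation genes (T375428A, SUP105), STE12, a factor of the mating and filamentation pathways (G275370T, SUP10), and PHD1, an activator of pseudohyphal growth (C356511G, SUP7). None of these 4 strains carried an SNV in the 10 genes. The share of all yeast genes with an SNV in the suppressors was not counted. The 4 of 14 regulators and 12 of 40 cell wall and surface genes are therefore not read as an excess.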

How the data were processed

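Paired-end reads of genomic DNA were aligned by the authors to sacCer2 with Novoalign 2.07.14, duplicates of the longer reads were removed with Picard 1.81, bases were counted with deepSNV, and SNVs were called jointly within each experiment by Python scripts and annotated with snpEff, which gives 1 overlapping gene and 1 effect per SNV. Which strains had the longer reads is not given in the sources used here. The deposited values are allele frequencies (a share of reads, listed as 10 where the value is 1, and read here as 1). The counts of reads behind them were not used here, so the precision of a single value is unknown and no interval is given.

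SNVs were assigned to the 10 genes by their systematic name in the deposited tables, and 1533 of 1660 identifiers were named from a gene table of R64, with no coordinate of that build used. Each distinct SNV was counted once, with its highest allele frequency where several suppressors carry it. Distances are to the nearest SNV of the same strain on the same chromosome. Nonsilent SNVs are missense, nonsense, start-lost and stop-lost. Medians and ranks of a suppressor leave out chromosome XII.

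The 10 genes and the lists of 40 and 14 further genes were chosen with earlier results of these data known. The genes named are the 10, and from the lists those with an SNV in YMS6 or S64Bα, in 2 or more suppressors or with a nonsense SNV. Others are said to be chosen after their values were seen. No test was made, since the genes were chosen on these values and each strain has 1 library. The planned search for repeated protein sequence around the SNVs was not run, because no protein sequence or residue position was used here, and retrotransposon reading frames were not grouped. Counting steps were tested on simulated data. Alternatives were other minimum allele frequencies, SNVs at 0 in the control only, other distances and boundaries, and the comparison without chromosome XII. Counting in groups, leaving out 6 suppressors and comparing with SNVs outside genes were chosen after seeing the data. Python 3.11.15, numpy 2.4.6, pandas 2.3.3 and matplotlib 3.10.9 were used.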

Additional observations from a re-analysis of the deposited data

How the results depend on the processing

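No paired analysis was possible because each strain has 1 library and no comparison comes from a test. Of the alternatives, 29 moved a share beyond its 95% binomial interval or changed a number of SNVs by over 1.5 times, and 59 did not. With few SNVs that interval is wide, and the 59 include changes of the share under 0.7 in the 10 genes in the suppressors from 12.5% to 31.25% (boundary at 0.9) or 6.25% (0.6), of the nonsilent share of the 10 genes in YMS6 from 19.5% to 30.8% (control values of 0), and of the share of other genes in YMS6 close to another SNV from 35.7% to 21.1% (control values of 0). In YMS6 the 41 SNVs of the 10 genes became 13 at a minimum allele frequency of 0.4, 3 at 0.7, 13 when only SNVs at 0 in YGDP939 were kept and 18 in groups. Their share under 0.7 became 76.9% at the minimum of 0.4 and 76.9% with control values of 0, and 100% lay under 0.9. In other genes that share became 31.25% at 0.4 and 42.1% with control values of 0. The share above 0 in the control became 38.5% at 0.4 and 0% at 0.7 in the 10 genes, and 25% at 0.4 and 0% at 0.7 in other genes, so the difference in control reads shrank. The share close to another SNV became 66.7% at 0.7 and 82.9% within 100 bases in the 10 genes, and in other genes 18.75% at 0.4 and 0% at 0.7, with 75.5% for SNVs outside genes. The nonsilent share of the 10 genes became 0% at 0.7. In the suppressors the share of SNVs read in non-carriers at 0.05 or more became 0% in the 10 genes and 1.04% in other genes. For other genes the share under 0.7 became 4.85% without chromosome XII and 15.2% without 6 suppressors, and with the boundary at 0.6 or 0.9 it became 15.4% or 19.8%. Their share above 0 in the control became 4.35% when counted in every strain and 0.330% at a control value of 0.01 or more, and their share close to another SNV became 2.59% within 100 bases, 18.1% within 10000 bases and 4.05% for SNVs outside genes. The contrast in YMS6 between the 10 genes and others in allele frequency kept its direction at a minimum of 0.4 and with control values of 0. A minimum of 0.7 leaves no value under 0.7, and SNVs at 0 in the control leave no control share, so these gave no value. The search for repeated protein sequence was not run.

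The tables hold SNVs past fixed limits only, so low allele frequencies in the suppressors and control values of 0.1 or more are out of sight. Depth per position is unknown, and whether a low allele frequency reflects few reads was not tested. Reads of unequal length were used, and read length cannot be told apart from strain here.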

Other observations

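Some of the SNVs outside genes had 1 of the 10 genes named as a neighbour in the tables. In YMS6 there were 4, beside FLO9 and FLO5, at allele frequencies of 0.266 to 0.299 and with 0.0650 to 0.0928 in YGDP939. T23844C lay beside FLO9, and T530860G, T531141G and T531148C beside FLO5. These values are under 0.4, so SNVs like them could not be listed in the suppressors, and the 2 experiments are not compared here. In the suppressors there were 8, beside 5 of the genes, at 0.862 to 1 and all at 0 in YJT75. Beside FLO5 these were A530045T in SUP9, A531037G in SUP13 and C523798G in SUP54, and beside DAN4 they were A710682G in SUP92 and C710482A in SUP122. CSS1 (G26157C, SUP1), YMR317W (C910895A, SUP8) and HPF1 (T25202C, SUP68) had 1 each.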
